A study of Mus musculus with 217 samples.

Results

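Lect1 encodes chondromodulin, and its level was followed here over the cells of a growth plate. It is 1 of 9739 genes in the deposited table, and it was taken by its symbol from the single row of that name. Chondromodulin is made as a membrane protein with a BRICHOS domain, a fold shared by a small family of precursors. Proteolytic cleavage releases its mature part into the cartilage matrix, where it is known as an inhibitor of endothelial growth and as a marker of avascular cartilage. In the growth plate the cartilage of the resting and columnar zones has no vessels, whereas vessels invade the end of the hypertrophic zone, and chondromodulin is known chiefly from the avascular part.

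All cells belong to 1 group. They are wild-type cells of the strain C57/BL from the microdissected growth plate of the tibia, at postnatal day 7. The 217 cells carry the same labels and no animal is named, so they count as 1 sample and nothing could be tested. Every SD given here is the spread among profiles of that sample. Of the 217 columns, 52 fell into 23 sets whose members correlated at 0.964 or more, and averaging each set took away 29 columns. Cell_204 was left out by the same rule that chose the gene, which leaves 30 profiles fewer than columns. Of the profiles, 94.1% had an Acan value of at least 5 on the deposited log2 scale, and the other 11 had less. Acan encodes aggrecan, the large proteoglycan of cartilage, and profiles with a value of at least 5 are called aggrecan-bearing below. The threshold lay in a gap, since the highest Acan value under it was 2.91 (Cell_114, with Lect1 at 8.02) and the lowest above it 6.67 (Cell_160, with Lect1 at 12.67).

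In the mouse, the gene is now called Cnmd. It lies on chromosome 14 at 79637690 to 79662170, on the minus strand of GRCm38 (GENCODE M21), with 2 protein-coding transcripts of 7 exons each, and no other annotated gene overlaps it. The 239 bases upstream of every annotated transcript, at chr14:79662195-79662433, are shown as the proximal promoter of the gene with the largest difference between the cell classes below. The sequence is from RefSeq (GRCm38.p6), is read 5′ to 3′ on the minus strand, and has its single GT box match in capitals.
Lect1 upstream region: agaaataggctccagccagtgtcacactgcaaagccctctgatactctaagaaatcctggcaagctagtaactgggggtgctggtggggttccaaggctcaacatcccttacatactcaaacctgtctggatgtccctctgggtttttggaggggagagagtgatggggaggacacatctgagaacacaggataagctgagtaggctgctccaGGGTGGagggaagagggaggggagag

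Its GC content was 53.6%, against a median of 52.3% over the 32851 RefSeq windows of the same length, and it held 0 CpG dinucleotides. GT boxes are known as sites for factors of the Sp family. The letters searched were GGGTGG, on both strands, and 26.9% of all windows hold them. The letters of a GC box (GGGCGG, in 31.2% of windows), of a TATA box (TATAAA, in 12%), of 2 SOX cores (ACAATG in 10.4% and AACAAT in 9.2%) and of a YY1 core (CCATNTT, in 12%) were not found. A match is a run of letters and not a binding site.

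Lect1 separated aggrecan-bearing cells from the others nearly completely. In profiles with Acan of at least 5, Lect1 had a lowest value of 5.46, a median of 13.41 and a highest of 14.24 on the log2 scale, whereas in the 11 profiles with Acan under 5 it had a lowest value of 0, a median of 0 and a highest of 8.02. Lect1 averaged 13.28 ± 0.82 (SD over profiles) with Acan of at least 5 and 1.97 ± 2.68 (SD, n = 11) with Acan under 5, a difference of 11.31 on the log2 scale. The ranges overlapped through 1 profile on each side, Cell_108 at 5.46 and Cell_114 at 8.02. A Lect1 value of at least 10 was seen in all but 1 of the profiles with Acan of at least 5 (99.4%, 95% exact Clopper-Pearson interval 96.9 to 99.99%) and in 0 of 11 with Acan under 5 (upper limit 28.5%). These intervals cover counting error only and treat cells as independent.

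As a share of the summed back-transformed values of a profile, Lect1 took a median of 2.28% (range 0.00944 to 3.995%) with Acan of at least 5 and a median of 0% (range 0 to 0.0640%) with Acan under 5. The share is on the deposited scale, whose abundance unit is not given in the sources used here.

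**Figure D1:**
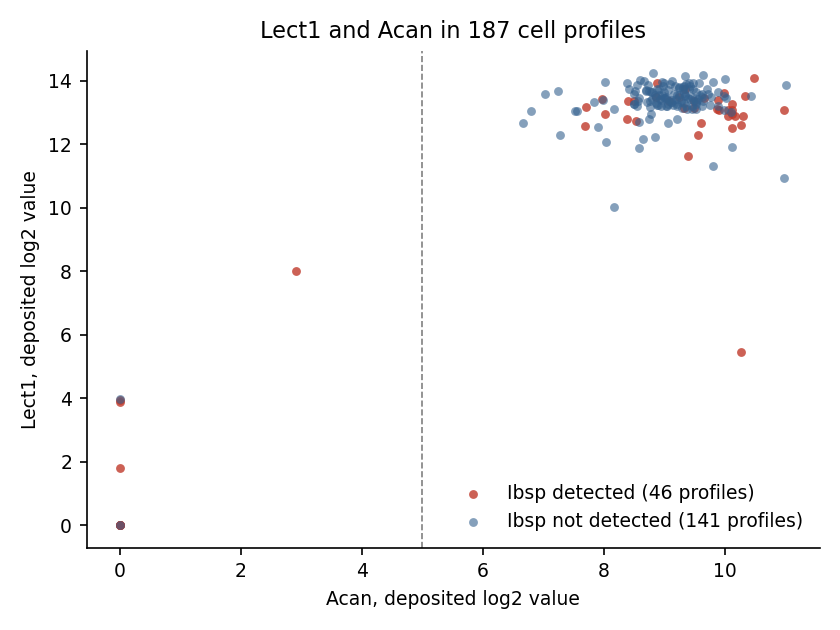
Each point is 1 profile, with the deposited log2 value of Acan on the x axis and that of Lect1 on the y axis. Red points have Ibsp detected and blue points do not, and the dashed line marks the Acan value of 5. Profiles to the right lie mostly between 12 and 14.24 for Lect1, with Cell_108 at 5.46, and those to the left lie at or under 8.02.

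Of all 9739 genes, Lect1 had the largest mean difference between the 2 classes. Hapln1, which links aggrecan to hyaluronan, followed with a difference of 10.43 on the log2 scale. Epyc, a small leucine-rich proteoglycan, differed by 10.19 and Matn3, a matrilin, by 10.02. Such a difference cannot exceed the level of a gene in the higher class, and the median over all genes was 0.16. All 20 measured members of the cartilage matrix list were higher on average with Acan of at least 5, with a median difference of 8.69, where 60.6% of all genes had a difference above 0. Acan is a list member and defined the classes. The smallest difference on the list, 0.31, was that of Col2a1, the main collagen of cartilage. Col2a1 averaged only 0.49 with Acan of at least 5, and the cause of this low level was not tested. The ranking of genes thus holds for the values as deposited. The difference was 4.67 for Col11a1, a chain of collagen XI, which was still detected in 8 of the 11 profiles with Acan under 5, at a median of 8.50.

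The 11 profiles with Acan under 5 were not alike. Ibsp, which encodes bone sialoprotein, was detected in 9 of them, and so was Col1a2, a chain of the collagen of bone. Among these 9, Lect1 was listed at 0 in 5 profiles and at 1.80, 3.90, 3.95 and 8.02 in the other 4. The profile at 8.02, Cell_114, carried Ibsp at 14.38 and Col1a2 at 14.67, together with Acan at 2.91, Sox9 at 5.56 and Col9a2 at 3.97. In the 2 profiles without Ibsp and Col1a2, both of which carried Pecam1, an endothelial marker (4.43 and 3.38), Lect1 was 0 in Cell_069 and 3.98 in Cell_110. A value of exactly 0 may stand for a missed transcript as well as for none. Markers of bone cells moved with this comparison: the summed level of the 8 measured osteoblast genes had a median of 11.1 (range 0 to 66.4) with Acan of at least 5 and of 51.9 (range 0 to 81.5) with Acan under 5. Their part in the result was not tested. Of the 3 measured blood cell markers, Lyz2 and Csf1r were at 0 in all 11 profiles with Acan under 5. The third, Cd68, a lysosomal protein of macrophages, was detected in 1 of these 11, Cell_110, at 8.44, above its highest value of 6.95 with Acan of at least 5.

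Within the 23 sets of like columns Lect1 took nearly the same value. The sets were formed for the likeness of all genes, and no label says that their columns are repeats of a cell. The pooled SD within sets was 0.084 (log2), and the largest range within a set was 0.20. The SD over the aggrecan-bearing profiles was about that of Hapln1 (0.82 and 0.83), but it owed much to Cell_108, without which it was 0.57. That profile was left out for Lect1 alone. With it kept in, the SD of Lect1 ranked 20 of the 25 genes compared next, counted from the narrowest. The interquartile range, 13.13 to 13.65, was 0.52 wide, which was the fifth narrowest of the 25 genes with a mean deposited value of at least 11. Rps3a1 (0.45), Ppia (0.47), Eef1a1 (0.47) and Rpl7 (0.50) had narrower ones. These encode ribosomal proteins, a cyclophilin and an elongation factor, whereas the interquartile range was 0.68 for Col11a1, 0.98 for Hapln1 and 1.07 for Sdc4, a cell-surface proteoglycan. Within the aggrecan-bearing class, Lect1 and Acan did not go together (Spearman's rho of -0.003 over these profiles).

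The aggrecan-bearing profiles were then divided by detection of Col10a1, Ihh and Ibsp. These are known as markers of the hypertrophic sequence, but no label gives the position of a cell. A gene was counted as detected from a back-transformed value of 1 upward. Col10a1 encodes the collagen of hypertrophic cartilage, and Ihh the hedgehog ligand of prehypertrophic cells. Lect1 averaged 13.26 ± 0.88 (SD) where Col10a1 was detected and 13.35 ± 0.58 (n = 39 profiles) where it was not. It ran from 5.46 over a median of 13.39 to 14.20 with Col10a1 and from 11.89 over a median of 13.49 to 14.24 without it. Most of both ranges coincided, and the difference of -0.09 was well within the SD of either class. Without Cell_108 it was -0.03. Upper-quartile scaling rescales each profile so that the upper quartile of its values above 0 is the same in all. After it the difference was 0.20, so that no direction can be given for Col10a1.

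Classes by Ihh also overlapped. Lect1 averaged 13.24 ± 0.51 (SD, n = 61 profiles) where Ihh was detected and 13.30 ± 0.95 (SD) in the others, with medians of 13.35 and 13.45. The difference of -0.06 was smaller than the SD within sets of like columns. It was -0.13 without Cell_108 and 0.14 with upper-quartile scaling, so that no direction can be given for Ihh either.

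For Ibsp the difference was larger. Lect1 had a lowest value of 5.46, a median of 13.11 and a highest of 14.08 in the 37 profiles with Ibsp, and a lowest value of 10.02, a median of 13.45 and a highest of 14.24 in the profiles without it. Lect1 averaged 12.91 ± 1.34 (SD, n = 37) with Ibsp and 13.37 ± 0.58 (SD) without it, a difference of -0.46 that was smaller than either SD and larger than the SD within sets of like columns. Without Cell_108 the difference was -0.25, with an SD of 0.47 over the 36 remaining profiles with Ibsp, and with upper-quartile scaling it was -0.24. The median difference over all genes was 0.17 as deposited and 0.23 with that scaling, so that Lect1 lay 0.63 and 0.47 below it. Both gaps include Cell_108, and that median covers many genes detected in few profiles, unlike Lect1. Profiles with Ibsp held a median of 3682 detected genes and those without it 3306. With genes detected regressed out of Lect1, the difference was -0.53. Bone markers moved with Ibsp: Col1a1 was detected in 15 of 37 profiles with Ibsp (40.5%) and in 9 profiles without it (6.47%). All 8 osteoblast genes were detected more often with Ibsp. So were all 3 blood, 2 osteoclast and 1 endothelial markers measured, and 1 of 3 perichondrial and tendon markers. Of the osteoblast genes, 7 of 8 were also detected more often with Col10a1, and 7 of 8 with Ihh. The count is thus not particular to bone markers or to Ibsp, and no share over all genes is given for it. The summed level of the osteoblast genes had a median of 14.9 (range 0 to 66.4) with Ibsp and 10.3 (range 0 to 30.8) without it. Their part in the difference was not tested.

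**Figure D2:**
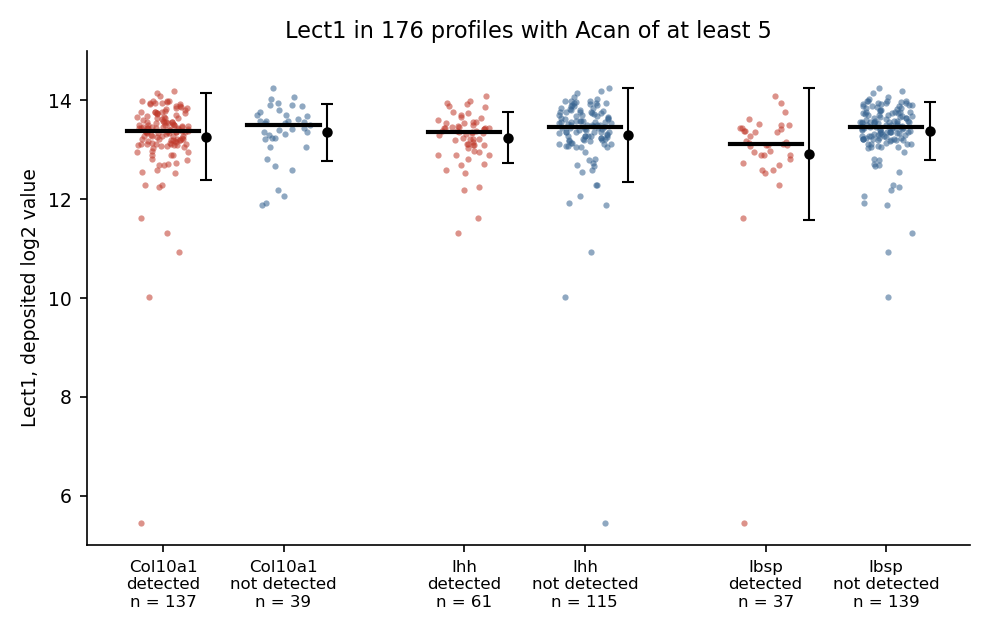
Points are the profiles with Acan of at least 5, shown 3 times, divided by detection of Col10a1, Ihh and Ibsp (red, detected, and blue, not detected), with the deposited log2 value of Lect1 on the y axis. Black bars are medians, and black dots with whiskers are means with the SD over profiles. The medians with and without the marker are 13.39 and 13.49 for Col10a1, 13.35 and 13.45 for Ihh, and 13.11 and 13.45 for Ibsp.

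When the markers were combined, the mean of Lect1 was lowest in profiles with Ibsp without Ihh (12.77 ± 1.93 SD, n = 17), but this place rested on Cell_108, without which the class averaged 13.23 ± 0.44. Its median of 13.27 was also above that of 13.09 in profiles with both Ibsp and Ihh. The mean was 13.04 ± 0.48 (n = 20) with both Ibsp and Ihh, 13.34 ± 0.50 (n = 41) with Ihh without Ibsp, 13.38 ± 0.63 (n = 69) with Col10a1 alone and 13.41 ± 0.60 (n = 29) with none of the 3 markers. No neighbours in this order differed by more than the larger of their SDs, and all 5 stood above the profiles with Acan under 5. The order of the upper classes depended on the scaling, since profiles with none of the markers averaged 13.08 and those with Col10a1 alone 13.36 after upper-quartile scaling. Medians after that scaling were 13.34 with both Ibsp and Ihh, 13.41 with Ibsp without Ihh and 13.36 with none of the markers. They were 13.50 with Col10a1 alone and 13.49 with Ihh without Ibsp. By scaled medians, the classes with Ibsp thus lay on either side of the profiles with none of the markers. Of the 37 profiles with Ibsp, 34 also had Col10a1, and of the 61 with Ihh, 54 did.

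As deposited, Lect1 differed little between bands of Col10a1 except at the top, where it was lower. The bands were chosen after their values were seen. Lect1 averaged 13.35 ± 0.58 (SD, n = 39) for Col10a1 under 1, 13.29 ± 0.87 (n = 13) from 1 to 4, 13.47 ± 0.30 (n = 42) from 4 to 8 and 13.34 ± 0.47 (n = 68) from 8 to 12. In the 14 profiles with Col10a1 of at least 12 it averaged 12.18 ± 2.13 with a median of 13.001, and 12.69 ± 0.92 without Cell_108. The highest value in this band, 13.37, was below the median of 13.50 in the 42 profiles from 4 to 8. After upper-quartile scaling the means, from the lowest band upward, were 13.10, 13.23, 13.54, 13.40 and 12.18, so that the band under 1 then also lay below the middle ones. Spp1, which encodes osteopontin, a protein of mineralized matrix, was detected in 10 of the 14 profiles of the top band and Mmp13, the collagenase of late hypertrophic cells, in 5.

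**Figure D3:**
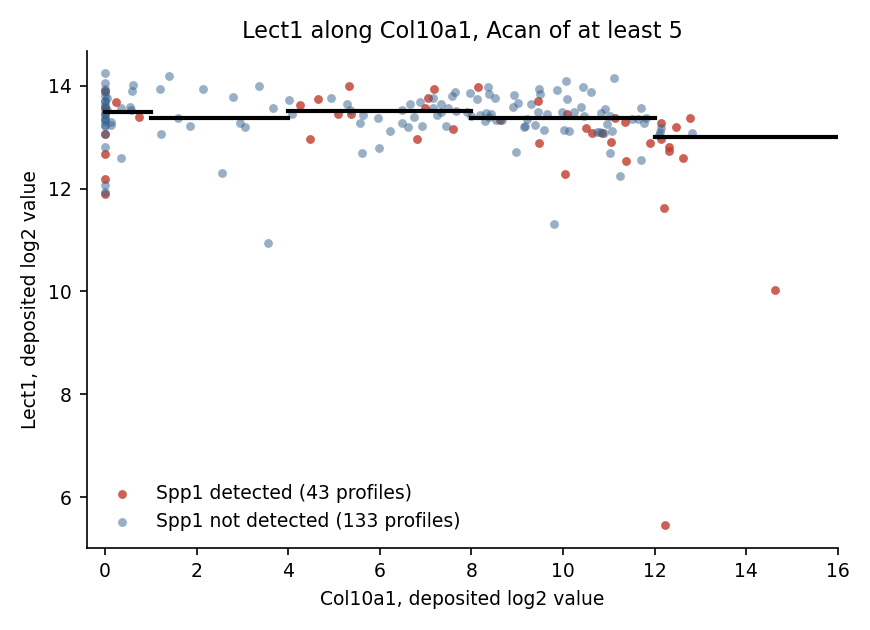
The x axis gives the deposited log2 value of Col10a1 and the y axis that of Lect1 in profiles with Acan of at least 5, red where Spp1 was detected and blue where it was not. Black bars are medians over bands of Col10a1, 13.50 from 4 to 8 and 13.001 from 12 upward. The lowest points at the right, at 5.46 and 10.02, are Cell_108 and Cell_016.

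The 2 aggrecan-bearing profiles with least Lect1 carried several late markers, but not all of them. Cell_108 had Lect1 at 5.46, with Acan at 10.27, Col10a1 at 12.23, Mmp13 at 12.34, Spp1 at 10.59 and Ibsp at 7.18. Dmp1, a protein of mineralized matrix, was listed at 0 in it. Clu, which encodes clusterin and is a resting marker in the lists used here, was at 13.78. In the same profile Sox9 was 2.34, and Col9a2, Epyc and Matn3 were listed at 0, whereas Hapln1 was 8.31 and Col11a1 was 8.27. Cell_016, the next, had Lect1 at 10.02, Col10a1 at 14.62, Mmp13 at 9.81, Spp1 at 9.15 and Dmp1 at 8.17. Its Ibsp value of 0.26 did not count as detected. Cell_016 was an average of 3 like columns that lay between 9.96 and 10.12 for Lect1. Cell_021, with Lect1 at 10.93, had Col10a1 at 3.56 and Ibsp, Spp1 and Mmp13 at 0, and held 1326 detected genes, the fewest of all profiles.

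Several other markers of mineralized and hypertrophic cartilage gave values in the same direction as Ibsp. The mean difference of Lect1, detected minus not detected, was -0.49 for Spp1 (12.91 ± 1.37 in 43 profiles against 13.40 ± 0.49 in the others), -0.47 for Dmp1 (12 profiles with it) and -0.90 for Mmp13 (15 profiles with it). Without Cell_108 the differences were -0.31 for Spp1, -0.51 for Dmp1 and -0.40 for Mmp13. With Cell_108 kept in, they were -0.39, -0.20 and -0.67 after upper-quartile scaling. Cell_016, with Lect1 at 10.02, carried Spp1, Dmp1 and Mmp13 and is part of all these values. The differences thus share low profiles and are not separate results, and none is given without Cell_016. Between medians they were -0.27 for Spp1 and -0.45 for Dmp1. The medians for Mmp13 were close, however, at 13.36 with it and 13.41 without it, so that its mean difference rested on few profiles. Of the 8 hypertrophic markers with at least 5 profiles on either side, 5 had a lower mean of Lect1 where detected, and Phospho1, Cdkn1a and Cdkn1c did not, with differences of 0.02, 0.18 and 0.02. The count was 7 of 8 without Cell_108, 7 of 8 by medians and 4 of 8 after upper-quartile scaling. Over all 24 zone markers with enough profiles, 14 had a lower mean of Lect1 where detected. That count was 19 of 24 without Cell_108, 18 of 24 by medians and 7 of 24 after upper-quartile scaling. No share over all genes is given for these counts, so they set the zone markers apart from no other genes. The direction was not particular to late markers, since both columnar markers with enough profiles had it too. The difference was -0.25 for Fgfr3, an FGF receptor of proliferating chondrocytes (-0.30 without Cell_108 and -0.13 after upper-quartile scaling). For Pcp4, a calmodulin-binding protein, it was -0.69 (-0.14 without Cell_108 and -0.65 after that scaling).

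Among resting markers, 3 of 7 (Ucma, Sfrp5 and Barx2) had a higher mean of Lect1 where they were detected. Lect1 averaged 13.42 ± 0.42 (SD) with Ucma, a small secreted cartilage protein, and 13.07 ± 1.16 (n = 71) without it, a difference of 0.35. It averaged 13.48 ± 0.40 (n = 66) with Sfrp5, a secreted WNT antagonist, and 13.15 ± 0.97 (SD) without it, a difference of 0.33. Both differences lay within the SD of the profiles without the marker, and they were 0.24 and 0.26 without Cell_108 and 0.35 and 0.32 after upper-quartile scaling. For Cd200, Nt5e and Apoe, on the same list, the differences were -0.20, -0.23 and -0.18 as deposited and 0.02, 0.03 and 0.03 after upper-quartile scaling. Clu had -0.29 as deposited and -0.22 after that scaling, and was then the 1 marker of 7 with a lower mean where detected. The 7 prehypertrophic markers had differences from -0.07 (Mef2c) to 0.19 (Runx3). As deposited 3 of 7 had a lower mean of Lect1 where detected, against 6 of 7 without Cell_108, 5 of 7 by medians and 0 of 7 after upper-quartile scaling. For the resting and prehypertrophic counts, too, no share over all genes is given.

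The genes most like Lect1 were cartilage matrix genes and Sox9. Spearman's rho with Lect1 was computed over the profiles with Acan of at least 5 for 5379 genes detected in at least 20% of them. The profiles share 1 sample and the authors' scaling, so rho is a description. Col9a2, a chain of collagen IX, had the highest rho at 0.48. It was followed by Epyc (0.46), Prelp (0.42), Scrg1 (0.42) and Fmod (0.41). Prelp and Fmod encode small leucine-rich proteoglycans of connective tissue, and Scrg1 a small secreted protein of chondrocytes. Sox9, which specifies chondrocytes and is reported to activate the chondromodulin gene, was sixth at 0.39. The next were 1500015O10Rik (0.36), Ndufa4l2 (0.36), a hypoxia-induced mitochondrial protein, Pgam1 (0.34), a glycolytic enzyme, Itm2a (0.34), Col11a2 (0.34), a chain of collagen XI, Pamr1 (0.33), Gbas (0.33), Rps25 (0.33), a ribosomal protein, and Srsf2 (0.32), a splicing factor.

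**Figure D4:**
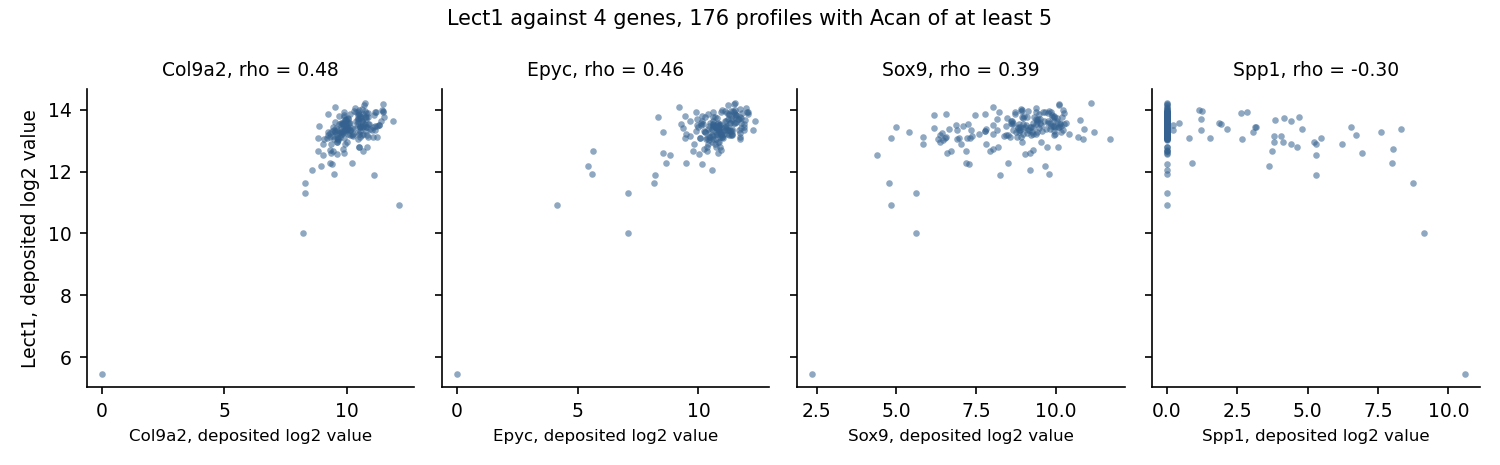
Each panel plots the deposited log2 value of Lect1 (y axis) against that of Col9a2, Epyc, Sox9 or Spp1 (x axis) in the profiles with Acan of at least 5. Spearman's coefficient is 0.48, 0.46, 0.39 and -0.30, and the lowest point in each panel is Cell_108, at Lect1 5.46.

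Rank values changed little when Cell_108 was left out, with rho at 0.47 for Col9a2, 0.45 for Epyc and 0.38 for Sox9. Pearson's r depended on that profile for Col9a2, at 0.74 with it and 0.44 without it, and less so for Epyc, at 0.78 and 0.66. Over the alternatives that could move these values, the lowest was 0.45 for Col9a2, 0.41 for Epyc and 0.37 for Sox9. These genes were picked by rho with Lect1 over the same profiles, so a direction shared with Lect1 by Ibsp is no separate result. The mean difference by Ibsp, detected minus not detected, was -0.86 for Col9a2, -0.61 for Epyc, -1.20 for Prelp and -1.71 for Sox9. Of the 15 genes of highest rho, those outside the matrix list were lower too, among them Srsf2 (-1.70), Ndufa4l2 (-1.58) and Rps25 (-0.52). By Col10a1 the named genes parted, with 0.14 for Col9a2, -0.11 for Epyc and -1.18 for Sox9.

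Over the whole cartilage matrix list, 8 of the 20 reached a rho of 0.3, where 0.502% of all 5379 genes did, and the median was 0.21, against -0.02 over all genes. The 8 were Col9a2, Epyc, Prelp, Scrg1, Fmod, Col11a2, Col11a1 (0.32) and Col27a1 (0.32). Other members did not go with Lect1, among them Acan (-0.003), Col9a3 (0.01), Comp (-0.11), a pentameric matrix glycoprotein, and Chad (-0.18), chondroadherin. After upper-quartile scaling the list median was 0.36 and that of all genes 0.11. Col2a1, the main collagen of cartilage, was detected in 21.02% of these profiles and never exceeded 3.14, so that its rho of -0.03 says little.

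The negative end was weaker. A rho of at most -0.3 was reached by 7 genes (0.13% of all): Cd200 (-0.31), a membrane glycoprotein, Fam43a (-0.31), Enpp2 (-0.31), which encodes autotaxin, Usp53 (-0.30), Psma2 (-0.30), a proteasome subunit, Ghitm (-0.30) and Snx6 (-0.30), a sorting nexin. Ibsp (-0.298), Spp1 (-0.296) and Cpe (-0.296), carboxypeptidase E, lay just outside. After upper-quartile scaling these 10 genes had values between -0.16 (Ghitm) and 0.03 (Cpe), and no gene reached -0.3. The 5 hypertrophic genes in the ranking all had a negative rho, with a median of -0.26 from -0.30 (Ibsp) to -0.10 (Cdkn1c), but the list median was -0.03 after upper-quartile scaling. The list medians were -0.10 for 6 prehypertrophic genes, -0.07 for 5 resting genes, 0.20 for 3 columnar genes (Fmod, Col9a1 and Matn1, all of them matrix genes) and 0.05 for 4 osteoblast genes. After upper-quartile scaling they were 0.11, 0.04, 0.40 and 0.18 in the same order, and the resting median was -0.19 among genes detected in at least 50% of profiles. Of all genes, 42.5% had a rho above 0 as deposited.

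**Figure D5:**
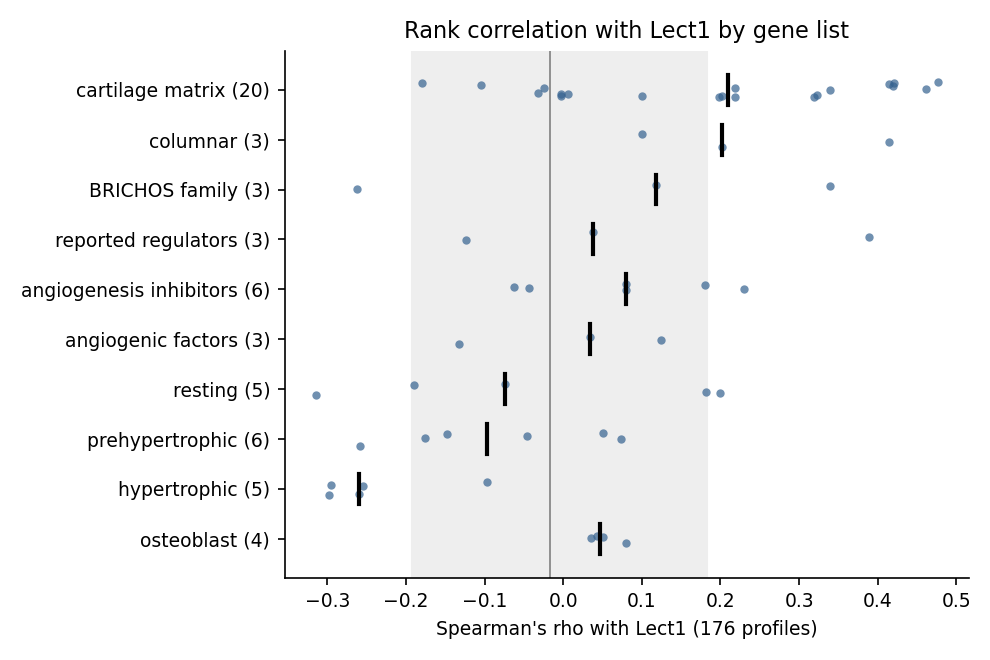
Each point is the rank correlation with Lect1 of 1 gene detected in at least 20% of the profiles with Acan of at least 5, by gene list, with the number of genes in brackets. Black bars are list medians, the grey line is the median of all 5379 genes (-0.02), and the grey band spans the central 95% of them (-0.19 to 0.18). The cartilage matrix median is 0.21 and the hypertrophic median -0.26.

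Genes tied to how chondromodulin is made gave mixed values. Of 9 BRICHOS family genes listed, 3 were measured. Itm2a, a membrane protein of this family, was detected in all of these profiles and had a rho of 0.34, the tenth highest of all genes. It averaged 10.52 ± 1.09 with Acan of at least 5 and 2.39 ± 3.32 with Acan under 5, a difference of 8.13. Itm2b had a rho of -0.26 and an Acan difference of -1.27, and Itm2c had 0.12 and -0.21. Pcsk6 was the single measured proprotein convertase, the class of enzyme that cleaves such precursors, and had a rho of -0.19. Among the reported regulators, Yy1 (0.04) and Hdac2 (-0.12), both described as repressors of the gene in human cells, had values near 0 or below, and Sox5, Sox6 and Ep300 were detected in 10.8%, 1.14% and 14.8% of profiles, too few for the ranking.

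Other genes that act on vessels, where they entered the ranking, had rho values from -0.13 (Ctgf) to 0.23 (Timp3). None reached 0.3 in either direction, where 0.502% of all genes reached 0.3 and 0.13% reached -0.3, so that this count sets them apart from no other genes. Of 7 measured angiogenesis inhibitors, 6 were detected widely enough, with a median rho of 0.08 as deposited and 0.22 after upper-quartile scaling. Timp3, a metalloprotease inhibitor that also blocks VEGF binding to its receptor, was highest at 0.23, above the central 95% of all genes, and Thbs1, thrombospondin 1, had 0.08. Serpinf1, which encodes the antiangiogenic factor PEDF, had 0.08, and against Acan it ran opposite to Lect1, at 2.42 ± 3.01 with Acan of at least 5 and 8.43 ± 4.60 with Acan under 5, a difference of -6.01. The 3 angiogenic genes in the ranking, Ctgf, Cyr61 and Hif1a, had rho values of -0.13, 0.12 and 0.03. Of 11 angiogenic genes listed, 5 were measured, and Vegfa was not among them.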

How the data were processed

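Single cells of the tibial growth plate were profiled from polyA RNA, with full-length SMARTer cDNA and Nextera XT libraries per the labels' protocols. TopHat and mm10 are named in the submitters' processing notes. For the quantifier, the annotation and the abundance unit, nothing is given in the labels or the file header. The deposited values are log2 values from 0 to 15.14, of which 62.3% are exactly 0. The base and the pseudocount of 1 were inferred from the values. Back-transformed totals ran from 394406 to 616257, and the read depth behind each column is unknown. Each gene is above 0 in at least 10 columns. A row without a gene name was left out.

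Columns correlating above 0.95 were averaged. Genes named were the 15 highest and 10 lowest by rho, the 5 genes of the selection rule, and list members. Further genes of late or abundant profiles (Sdc4, Rps3a1, Ppia, Eef1a1 and Rpl7) and the Col10a1 bands were chosen after their values were seen. The gene, the classes and the lists were chosen with earlier results of these data known. The labels name no separate animals, so that no p-value was computed. No doublet caller was run. Detection at other levels, other scalings and other sets of profiles were tried as alternatives. Functions were tested on simulated data. Software was matplotlib 3.10.9, NetworkX 3.6.1, NumPy 2.4.6, SciPy 1.17.1 and pandas 2.3.3 under Python 3.11.15.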

Additional observations from a re-analysis of the deposited data

How the results depend on the processing

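No paired analysis was possible because all cells belong to 1 group and no comparison came from a test. A level or difference was counted as moved where it shifted by more than the SD within sets of like columns, 0.084. The mean of Lect1 over all profiles, 12.61, was 12.50 with a pseudocount of 0.1 and 12.92 without the 10% of profiles with fewest genes. The Acan difference of 11.31 kept its sign in all settings tried. It was 11.40 with upper-quartile scaling, 13.18 with a pseudocount of 0.1, 12.40 without the profiles with fewest genes, 13.41 between medians, 11.66 with Acan above 0, 10.94 with genes detected regressed out and 11.91 without Cell_114. It was 5.31 with an Acan threshold of 8, which puts aggrecan-bearing profiles into the lower class. The Col10a1 difference, -0.09, was 0.20 with upper-quartile scaling, -9.95e-05 with detection above 0 and -0.03 without Cell_108. The Ihh difference, -0.06, was 0.14 with upper-quartile scaling, -0.13 without Cell_108 and -0.17 without the profiles with fewest genes. The cause of these shifts was not tested. The Ibsp difference, -0.46, stayed negative in each setting taken alone. It was -0.37 with like columns kept apart, -0.24 with upper-quartile scaling, -0.31 without the profiles with fewest genes and -0.34 between medians. With detection at 10 it was -0.71, and without Cell_108, a setting chosen after seeing the data, it was -0.25. The scaled value still included Cell_108, and no value is given with both changes made.

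Of the 5379 genes, 0.502% (27) had a rho of at least 0.3. The share was 2.66% with Pearson's r (21 of the 27 among them), 1.13% over all profiles (25 of 27), 2.79% with upper-quartile scaling (25 of 27), 0.909% among genes detected in at least 50% of profiles (25 of 27) and 0.277% with no filter (27 of 27). A rho of at most -0.3 was held by 0.13%. That share was 0.260% with Pearson's r, 0.260% over all profiles, 0.258% with Acan of at least 8, 0.0368% with Lect1 of at least 10 and without Cell_108, 0% given genes detected and with upper-quartile scaling, 0.0719% with no filter and 0.582% without the profiles with fewest genes. Depth per cell is unknown, so low values cannot be told from missed transcripts.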
